A study of Homo sapiens with 6 samples.

Results

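UBR ubiquitin ligases are proteins that share a UBR box, with which some of them read the first residues of other proteins. The genes described here are the UBR ligases UBR1, UBR2, UBR3, UBR4 and UBR7, the ligase partner KCMF1, and the ubiquitin-conjugating enzymes UBE2A and UBE2B. They were chosen by symbol, matched through their Ensembl identifiers. They make up 8 of the 60664 genes with deposited counts. RNA-seq compared SiHa PR cells with SiHa PR cells overexpressing P4HA3. There were 3 control samples and 3 P4HA3 samples. SiHa is an established human cervical cancer line, and PR marks the parental cells from which a line metastatic to lymph nodes was derived. The labels name the controls only as SiHa PR, and the study describes its controls for overexpression as vector cells. The labels do not say whether the 3 samples of a group were separate cultures, so p-values measure only the spread between these samples. The study describes overexpression of P4HA3 from cDNA cloned into pCDH, a lentiviral vector, as well as from transfected and doxycycline-inducible constructs. Neither the construct in the sequenced cells nor whether they were 1 clone is given in the sources used here.

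A UBR box is a small zinc-binding fold that can hold a basic residue at the start of a protein. Such a destabilizing first residue is called an N-degron. UBR1 and UBR2 bind N-degrons and pass ubiquitin to the protein with the help of UBE2A or UBE2B, the human forms of yeast RAD6. UBR4 is a very large ligase. With KCMF1 and calmodulin it forms a complex that acts on stress signals from mitochondria and on unimported mitochondrial proteins. The study followed UBR4 as a ligase of ACLY, the enzyme that makes acetyl-CoA from citrate. The comparison here asks whether the transcripts of these genes differed when P4HA3, an alpha subunit of collagen prolyl 4-hydroxylase, was overexpressed.

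Promoter sequences are shown for UBR4, the ligase the study followed, for UBR1 and UBR3, the ligases called higher, and for KCMF1, the partner of UBR4. They come from RefSeq on GRCh38.p14, where 6 of the 8 genes had an entry. UBR2 and UBE2B had none. Each stretch runs 5′ to 3′ on the strand of the gene, from 130 bases before the annotated start to 30 bases after it. Capitals mark AAGATGGC, a motif of YY1, and CCGGAAG, a core motif of ETS factors, both searched on both strands. The stretches lie at chr1:19210237-19210396 (minus strand) for UBR4, chr15:43106009-43106168 (minus strand) for UBR1, chr2:169827324-169827483 (plus strand) for UBR3 and chr2:84971031-84971190 (plus strand) for KCMF1.
UBR4: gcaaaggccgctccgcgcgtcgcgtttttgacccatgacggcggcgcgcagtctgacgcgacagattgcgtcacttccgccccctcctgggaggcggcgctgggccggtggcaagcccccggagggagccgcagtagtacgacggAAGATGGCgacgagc
UBR1: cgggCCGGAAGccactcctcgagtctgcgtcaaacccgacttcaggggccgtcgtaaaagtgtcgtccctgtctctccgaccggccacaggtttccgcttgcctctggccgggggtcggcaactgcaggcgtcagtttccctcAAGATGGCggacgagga
UBR3: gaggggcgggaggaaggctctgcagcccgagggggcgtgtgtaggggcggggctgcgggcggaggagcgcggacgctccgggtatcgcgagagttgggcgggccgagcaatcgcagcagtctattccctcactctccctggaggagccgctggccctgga
KCMF1: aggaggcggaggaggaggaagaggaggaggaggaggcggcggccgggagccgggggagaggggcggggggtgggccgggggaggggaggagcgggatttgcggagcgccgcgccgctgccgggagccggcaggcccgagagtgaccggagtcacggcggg

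In windows of 300 bases, AAGATGGC was found in 2 of the 6 promoters, those of UBR1 and UBR4. It was found in 2.89% of 35116 RefSeq promoters. In both genes the ATG inside it is the start codon, whose first base is at position 19210248 of chromosome 1 for UBR4 and 43106022 of chromosome 15 for UBR1. CCGGAAG was found in 1 of the 6, UBR1, against 10.3% of all promoters. The GC box GGGCGG was found in 4 of the 6 (UBR3, UBR4, KCMF1 and UBE2A) against 45% of all, and CCAAT in UBR7 alone against 34.6%. Neither TGACGTCA, the CRE, nor GCGCATGC, the NRF1 motif, was in any of the 6. No motif searched contains another. The KCMF1 window, at 83% GC, was the richest of the 6 against a median of 58.7% over all promoters. A match describes letters only.

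Total counts ran from 21773488 to 24589095 in controls and from 22160298 to 24939948 with P4HA3. P4HA3 had 86, 62 and 93 counts in controls and 45042, 44775 and 49097 with overexpression, as the labels require. KRT8 and KRT18, the keratins of simple epithelium, were high, at 1820 and 942 CPM in controls (CPM are counts scaled to the library total after TMM normalization). The summed CPM of the 6 epithelial markers ran from 2560 to 2900 in controls and from 2320 to 2620 with P4HA3, and KRT18 and CDH1 were called lower. Of the other epithelial markers, EPCAM stood at 5.77 CPM, KRT19 at 0.841 CPM and KRT5 at 0.158 CPM in controls. A deposited protocol describes uterine smooth muscle. Of 6 smooth muscle markers, MYH11, DES and CNN1 had at most 9 counts in any library, and ACTA2 had 161 to 204. ACTG2 had 0, 1 and 30 counts in controls and 40, 1 and 44 with P4HA3, so it differed between samples of the same group. The summed CPM of the 6, mostly MYLK, was 105 to 117 in controls and 87.5 to 97.2 with P4HA3, and MYLK was called lower. The summed CPM of 6 markers of other cell types was 83.5 to 87.8 in controls and 64.5 to 81.0 with P4HA3. Of these, PTPRC and VWF had at most 2 counts, PECAM1 was called lower, and COL1A1 carried most of the sum, at 61.7 and 53.3 CPM. The part of these markers in the results was not tested. In bulk RNA, a change in the cells present and a change in RNA per cell cannot be told apart.

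All 8 genes passed the filter on low counts and had positive log2 fold changes. UBR1, UBR3, KCMF1 and UBE2A were higher with P4HA3 by the quasi-likelihood test of edgeR, at a Benjamini-Hochberg adjusted p below 0.05 over 15130 genes. DESeq2 called 3 of the ligases and 2 of the partners higher, and limma-voom 2 and 2. None was called lower by edgeR, DESeq2 or limma-voom. At an unadjusted p under 0.05 by edgeR, 3 of the ligases and 2 of the partners were higher and 0 lower. At that level 19.3% of all genes were higher and 19.4% lower. Over all genes tested, 9.36% were called higher and 11.4% lower by edgeR. DESeq2 called 1505 of 12783 genes higher and 1563 lower, and limma-voom called 1347 of 15130 higher and 1714 lower. The median log2 fold change was 0.21 over the 8 genes and 0.01 over all genes. The changes were small, from 1.05-fold for UBR7 to 1.4-fold for UBR3. The CPM of the groups did not overlap for 6 of the 8, and the same held for 40.1% of all genes.

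The number of calls depended on the libraries used. Of the 8 genes, 0 were called when control replicate 1, control replicate 2 or P4HA3 replicate 3 was left out. Leaving out control replicate 3 gave 3 calls, P4HA3 replicate 2 gave 1 and P4HA3 replicate 1 gave 6. The share of all genes called higher moved as well. It was 1.49%, 1.06% and 1.79% in the fits with 0 calls, 9.08% without control replicate 3, 5.75% without P4HA3 replicate 2 and 18.3% without P4HA3 replicate 1. The log2 fold change fell with the GC content of the transcript, at a Spearman's rho of -0.581 across 15107 genes (genes are no replicates of each other). The 8 transcripts had GC contents from 36.4% for UBE2B to 51.7% for UBR4. An offset was then used to take out the dependence of every library on GC content and on transcript length. With it, 2 of the 8 were called higher, UBR3 and UBR4, and 0 lower. With this offset, 10.6% of all genes were called higher and 7.94% lower. Any group difference that tracks composition or length is lost with the offset, whatever its source. Values with the offset are given beside the first ones for each gene.

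**Figure D1:**
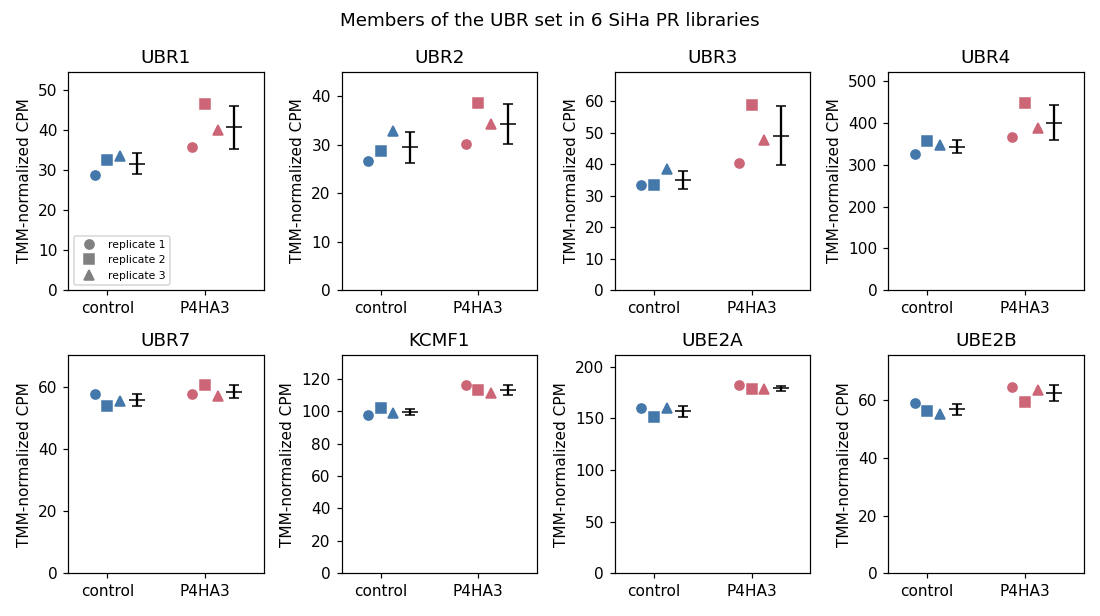
TMM-normalized CPM (y axes, from 0) of each gene in the 3 control and 3 P4HA3 samples (x axes). Symbols mark the replicate number, and the bars are mean ± SD. Whether the numbers pair the samples is not stated in the labels. UBR1, UBR3, UBR4, KCMF1, UBE2A and UBE2B show no overlap between the groups, and UBR2 and UBR7 do.

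UBR4 (ENSG00000127481) is the largest ligase of the set, with 5183 residues coded by 106 exons at chromosome 1 from 19074510 to 19210266 on the minus strand. Its counts were 7944, 7600 and 8487 in controls and 8521, 10074 and 9849 with P4HA3. Normalized expression was 326, 357 and 347 CPM in controls and 366, 448 and 388 CPM with P4HA3. Every P4HA3 sample lay above every control, with replicate 1 only just above and replicate 2 far above. The means were 343 ± 15.6 CPM and 401 ± 42.5 CPM (SD, n = 3 each). The log2 fold change was 0.22 (SE 0.08, 95% interval 0.05 to 0.39) and missed the threshold, with an adjusted p of 0.063 by edgeR. The offset gave 0.18 (SE 0.04) at an adjusted p of 0.00878. The offset-adjusted controls stood at 347, 354 and 344 CPM and the P4HA3 samples at 393, 406 and 384 CPM. The spread within the P4HA3 group was narrower there than before. A lncRNA on the same strand (ENSG00000272084) shares 387 of the 24661 exonic bases of UBR4, so reads there are uncertain.

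UBR1 (ENSG00000159459), the founding N-degron ligase of the family, lies on chromosome 15 from 42942897 to 43106113 on the minus strand. Its expression was 28.7, 32.4 and 33.6 CPM in controls and 35.8, 46.5 and 39.9 CPM with P4HA3. The groups did not overlap, and P4HA3 replicate 2 was the highest sample. UBR1 rose by a log2 fold change of 0.37 (SE 0.10, adjusted p = 0.0309 by edgeR). It was 0.14 with the offset (SE 0.05, adjusted p = 0.0894) and no longer called. Without 1 library, UBR1 kept its call only when control replicate 3 or P4HA3 replicate 1 was left out, and the log2 fold change ran from 0.26 without P4HA3 replicate 2 to 0.45 without P4HA3 replicate 1. The offset values of the groups still did not overlap, at 32.7, 35.9 and 33.7 CPM against 37.5, 37.7 and 37.2 CPM.

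UBR2 (ENSG00000024048), the closest relative of UBR1 and known for its role in meiosis, lies on chromosome 6 from 42564029 to 42693505 on the plus strand. Its expression was 26.6, 28.6 and 32.9 CPM in controls and 30.2, 38.5 and 34.3 CPM with P4HA3. The groups overlapped, since P4HA3 replicate 1 lay below control replicate 3. The log2 fold change of 0.23 had a 95% interval from -0.01 to 0.46 and was not called, with an adjusted p of 0.141 by edgeR. UBR2 was called when P4HA3 replicate 1 was left out (0.31, adjusted p = 0.0254 by edgeR). Its log2 fold change was 0.14 without P4HA3 replicate 2 and 0.32 without control replicate 3, neither called. The offset brought the log2 fold change to 0.04, with an interval from -0.08 to 0.16. The coding sequences of UBR1 and UBR2 were 65.6% identical. The longest run of bases their transcripts share was 22, shown here because a longer read cannot match both exactly.
UBR1 and UBR2: aagatcatggctcagatgtctg

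UBR3 (ENSG00000144357) is a more distant relative of UBR1, on chromosome 2 from 169827454 to 170084131 on the plus strand. Its expression was 33.4, 33.3 and 38.3 CPM in controls and 40.4, 58.9 and 47.7 CPM with P4HA3. The groups did not overlap, and the P4HA3 samples were spread more widely, relative to their mean, than for any other gene of the set. The log2 fold change was the largest of the 8, at 0.48 (SE 0.12, adjusted p = 0.0229 by edgeR). With the offset it was 0.26 (SE 0.06, adjusted p = 0.00974). UBR3 was thus called higher in both fits. Leaving out control replicate 1, control replicate 2 or P4HA3 replicate 3 ended the first call (adjusted p = 0.0889, 0.12 and 0.074 by edgeR), at log2 fold changes of 0.45, 0.45 and 0.51. The offset values were 37.8, 36.7 and 38.4 CPM in controls and 42.3, 48.1 and 44.5 CPM with P4HA3, again without overlap.

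UBR7 (ENSG00000012963), a smaller ligase with a PHD finger that acts on histone H2B, lies on chromosome 14 from 93207241 to 93229215 on the plus strand. Its expression was 57.9, 54.0 and 55.5 CPM in controls and 57.8, 60.8 and 57.1 CPM with P4HA3. The groups overlapped. The log2 fold change was 0.07, with a 95% interval from -0.06 to 0.20, and was not called (adjusted p = 0.413 by edgeR). With the offset it was -0.01, with an interval from -0.12 to 0.09. A second gene on the same strand (ENSG00000259066) shares 511 of the 3509 exonic bases of UBR7.

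KCMF1 (ENSG00000176407), the zinc-finger ligase that binds UBR4, lies on chromosome 2 from 84971093 to 85059472 on the plus strand. Its expression was 97.5, 102 and 99.1 CPM in controls and 116, 113 and 111 CPM with P4HA3. Both groups were tight and did not overlap. KCMF1 rose by a log2 fold change of 0.19 (SE 0.05, adjusted p = 0.0315 by edgeR). With the offset it was 0.02 (SE 0.07, adjusted p = 0.853), and the groups overlapped, with controls from 98.8 to 110 CPM and P4HA3 samples from 96.9 to 121 CPM. Of the 6 fits with 1 library left out, KCMF1 was called only in that without P4HA3 replicate 1, although the log2 fold change stayed between 0.17 and 0.21.

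UBE2A (ENSG00000077721) and UBE2B (ENSG00000119048) code for conjugating enzymes of 152 residues each. UBE2A lies on chromosome X from 119474802 to 119591083 and UBE2B on chromosome 5 from 134371184 to 134392108, both on the plus strand. UBE2A stood at 160, 151 and 160 CPM in controls and 182, 178 and 178 CPM with P4HA3. The P4HA3 samples of UBE2A lay close together and above all controls. Its log2 fold change was 0.19 (SE 0.05, adjusted p = 0.0295 by edgeR). It was 0.08 with the offset (SE 0.04, adjusted p = 0.195). Among fits with 1 library left out, UBE2A was called only without control replicate 3 or P4HA3 replicate 1, at 0.21 and 0.18. UBE2B stood at 59.0, 56.3 and 55.4 CPM in controls and 64.6, 59.3 and 63.5 CPM with P4HA3. The lowest P4HA3 sample of UBE2B was just above the highest control. Its log2 fold change was 0.13 (SE 0.06, adjusted p = 0.134 by edgeR) and was not called. It turned to -0.07 with the offset (SE 0.09, adjusted p = 0.638).

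The coding sequences of UBE2A and UBE2B, each 456 bases, were 80.5% identical. Their longest shared run of bases in the transcripts was 25, printed here because it bounds how long a read must be to tell them apart.
UBE2A and UBE2B: ctgaagaatatccaaataaaccacc
Exons of UBE2A also share 956 bases with NKRF and 112 with STEEP1, both on the opposite strand, of 5998 in all. The strand setting of the counting is not stated, so those reads are uncertain.

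**Figure D2:**
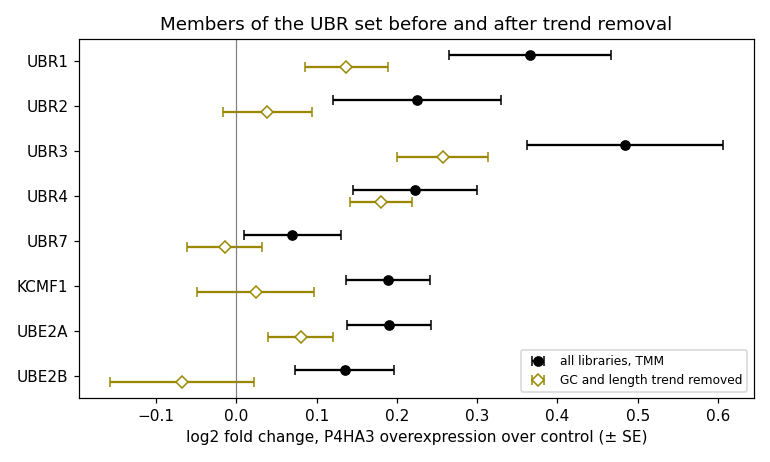
Log2 fold change of P4HA3 overexpression over control (x axis, bars ± SE) for each gene (y axis), with all libraries under TMM normalization (filled circles) and with the GC and length trend removed (open diamonds). All 8 filled circles lie above 0, while the open diamonds of UBR7 and UBE2B lie below it and those of UBR3 and UBR4 lie furthest above it.

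Levels were compared between genes per length, as CPM per kilobase of the canonical transcript. UBE2A was the most abundant transcript of the set, at 88.5 ± 3.01 CPM per kb in controls and 101 ± 1.26 CPM per kb with P4HA3 (SD, n = 3 each). UBE2B followed at 25.4 ± 0.825 CPM per kb in controls. UBR4 stood at 21.6 ± 0.979 CPM per kb, above UBR7 at 16.0 ± 0.572 CPM per kb and KCMF1 at 13.2 ± 0.269 CPM per kb. UBR4 was thus the most abundant ligase of the set by this measure. UBR3, UBR1 and UBR2 were lowest, at 4.37 ± 0.359, 4.10 ± 0.329 and 3.72 ± 0.407 CPM per kb in controls, and neighbours among them differed by no more than their spread. When the summed length of all annotated exons was used, an alternative chosen after seeing the data, UBE2A stood at 26.2 CPM per kb against 16.7 CPM per kb for UBE2B. On that scale UBR7 stood above UBR4, at 15.9 against 13.9 CPM per kb, and UBR2 above UBR1, at 3.31 against 3.18 CPM per kb.

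Samples of 1 group differed in a way that UBR1, UBR2, UBR3 and UBR4 shared. In P4HA3 replicate 1 these genes lay below their group mean, by log2 differences of -0.18, -0.18, -0.26 and -0.13. In P4HA3 replicate 2 they lay above it, by 0.20, 0.17, 0.28 and 0.17. UBR7, KCMF1, UBE2A and UBE2B stayed between -0.07 and 0.05 in those libraries. In control replicate 1 all of UBR1, UBR2, UBR3 and UBR4 were below their mean as well. Libraries also differed in their GC trend. Over all genes, the deviations of P4HA3 replicate 1 rose with GC content (Spearman's rho 0.466), and those of P4HA3 replicate 2 fell with it (-0.496). For transcript length the rho was -0.438 and 0.409. Among controls the rho with GC content was 0.226, 0.396 and -0.543 in replicates 1, 2 and 3. The part of this trend in the shared deviations was not tested. UBR1, UBR2, UBR3 and UBR4 have canonical transcripts of 7698 to 15892 bases.

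**Figure D3:**
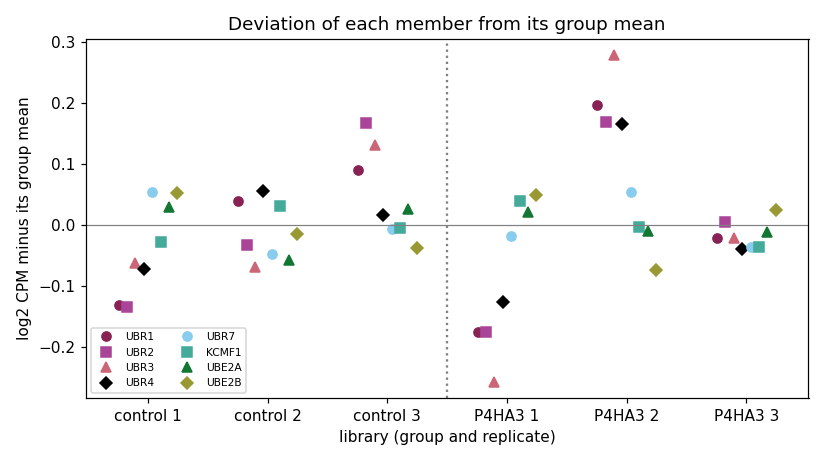
Log2 CPM of each gene minus its group mean (y axis) in each of the 6 libraries (x axis, controls left of the dotted line). UBR1, UBR2, UBR3 and UBR4 lie low in P4HA3 replicate 1, between -0.26 and -0.13, and high in P4HA3 replicate 2, between 0.17 and 0.28, and the other genes stay near 0.

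The genes whose pattern was most like that of UBR4 were sought among 9233 tested genes that averaged 10 CPM or more, by Pearson's r of log2 CPM over the 6 libraries. TENT4A came first with r = 0.997, followed by TVP23B, FGFR1OP2, FNIP1 and ZNF148 with r of at least 0.994 each. These values are a description over the same 6 libraries, in which each library's depth and GC trend act on every gene, and 989 genes had an r over 0.9. No gene of the set was among the first 5.

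Lists of genes that act around the set held 84 genes, all of them tested. Of these, 13 were called higher (15.5%) and 2 lower (2.38%), against 9.36% and 11.4% of all genes. Their median log2 fold change was 0.06. With the offset, 12 were called higher and 3 lower, of which 3 and 1 were also called without it. Leaving out control replicate 1 gave 1 higher call, control replicate 2 gave 0, P4HA3 replicate 3 gave 3 and P4HA3 replicate 1 gave 27, where 1.49%, 1.06%, 1.79% and 18.3% of all genes were called higher. The lower calls numbered 0 in the first 3 of these and without P4HA3 replicate 2, and 10 without P4HA3 replicate 1. In the same order, 3.6%, 2.41%, 4.1%, 8.59% and 17.6% of all genes were called lower. With all libraries and no offset, most of the called genes were subunits of the proteasome, the longest list, with 33 of the 84 genes.

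Upstream of the UBR ligases are enzymes that make or alter the first residue. Of 5 such genes, 2 were called higher and 0 lower, against 9.36% and 11.4% of all genes. METAP2, which removes the first methionine, rose from 66.1 ± 4.79 to 85.7 ± 14.3 CPM (log2 fold change 0.37, adjusted p = 0.034 by edgeR). ATE1, which attaches arginine to N-termini and so creates the signal that UBR1 and UBR2 read, rose from 25.6 ± 1.33 to 31.8 ± 3.34 CPM (0.31, adjusted p = 0.0361 by edgeR). NTAN1, the amidase for N-terminal asparagine, stood at 23.8 ± 0.633 and 20.5 ± 0.953 CPM and was not called. Neither METAP2 nor ATE1 was called with the offset, where the adjusted p was 0.0825 and 0.184. None of the 3 genes for substrates of this pathway, RGS4, RGS5 and RGS16, exceeded 1 CPM on average in either group. They gave 0 calls by edgeR and limma-voom, and 0 at an unadjusted p under 0.05 by edgeR. DESeq2 gave these 3 genes no adjusted p, so it could not call them.

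Readers outside the UBR family gave 0 calls among 6 genes by edgeR, DESeq2 and limma-voom, with 2 higher and 1 lower at an unadjusted p under 0.05 (19.3% and 19.4% of all genes). SQSTM1, the autophagy receptor p62, stood at 592 ± 21.2 CPM in controls and 653 ± 26.1 CPM with P4HA3, with an adjusted p of 0.104, and was called higher with the offset (log2 fold change 0.29, adjusted p = 0.000597 by edgeR). MARCHF6, a ligase of the endoplasmic reticulum, stood at 247 ± 15.4 and 262 ± 21.3 CPM and was called lower with the offset (-0.15, adjusted p = 0.0451). The CTLH complex, a multi-subunit ligase that reads N-terminal proline, gave 0 calls among 11 genes by edgeR and limma-voom and 1 higher by DESeq2. At an unadjusted p under 0.05, 3 were higher and 1 lower, and 7 did not overlap between groups. Over all genes these shares were 19.3%, 19.4% and 40.1%, and DESeq2 called 1505 of 12783 genes higher. Its members RANBP10 and WDR26 stood at 134 and 117 CPM in controls and 141 and 131 CPM with P4HA3. With the offset MAEA, RANBP9 and RANBP10 were called higher and YPEL5 lower.

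Around UBR4 and KCMF1, the list of calmodulin genes, UBA6 and its conjugating enzymes, and the DELE1 stress arm gave 1 call among 9 genes by edgeR and limma-voom, and 3 by DESeq2. Of all genes tested, edgeR called 9.36% higher, and DESeq2 called 1505 of 12783 higher. At an unadjusted p under 0.05, 4 of the 9 were higher and 0 lower, where 19.3% and 19.4% of all genes were. CALM2, a calmodulin gene, rose from 301 ± 19.7 to 367 ± 7.03 CPM (log2 fold change 0.29, adjusted p = 0.0125 by edgeR), and with the offset its adjusted p was 0.216. CALM3 stood at 525 and 498 CPM and UBA1, the main ubiquitin-activating enzyme, at 1330 and 1240 CPM, neither called. UBA6 and BIRC6, named after their values were seen, had P4HA3 samples more widely spread relative to their mean than UBR3, at 36.9 ± 11.8 and 70.0 ± 17.2 CPM against 27.1 ± 2.81 and 53.4 ± 5.94 CPM. Neither was called by edgeR, and DESeq2 called BIRC6 higher (adjusted p = 0.0286).

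Partners of UBE2A and UBE2B in DNA repair and histone ubiquitination gave 0 calls among 7 genes by edgeR and limma-voom and 3 higher by DESeq2, with a median log2 fold change of 0.26. These 3, named after their values were seen, were WAC, SHPRH and HLTF, at log2 fold changes of 0.26, 0.42 and 0.37 by DESeq2. DESeq2 called 1505 of all 12783 genes higher. With the offset 0 of the 7 were called, where 10.6% of all genes were called higher and 7.94% lower. At an unadjusted p under 0.05, 4 were higher and 0 lower, against 19.3% and 19.4% of all genes. PCNA, the sliding clamp that is modified with the help of UBE2A and UBE2B, stood at 195 ± 9.57 and 196 ± 3.91 CPM. RNF40, which works with RNF20 on histone H2B, stood at 162 ± 12.3 and 151 ± 7.29 CPM. UBB, a gene for ubiquitin itself, stood at 1760 ± 88.3 and 1570 ± 158 CPM and was not called (adjusted p = 0.16 by edgeR).

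The 26S proteasome, which degrades proteins carrying ubiquitin, had 8 of 33 subunits called higher and 0 lower, against 9.36% and 11.4% of all genes. The median log2 fold change of the 33 was 0.05. PSMC6 rose from 42.7 ± 1.73 to 55.6 ± 7.14 CPM (log2 fold change 0.38, adjusted p = 0.0185 by edgeR). PSMC2 rose from 119 to 145 CPM and PSMD12 from 85.8 to 103 CPM. PSMD14, the deubiquitinase of the lid, rose from 101 ± 4.40 to 123 ± 5.38 CPM (0.29, adjusted p = 0.0111 by edgeR). All but 1 of the 8, PSMA3, belong to the regulatory particle. With the offset 8 were again called higher and 0 lower, but only PSMC1, PSMD6 and PSMD14 were called in both fits.

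ACLY (ENSG00000131473) and the genes for its turnover moved in both directions, with 2 of 6 called higher and 2 lower by edgeR and limma-voom. DESeq2 called 1 higher and 2 lower. Over all genes, 9.36% were called higher and 11.4% lower by edgeR, and 1505 and 1563 of 12783 by DESeq2. ACLY was expressed at 453, 444 and 427 CPM in controls and at 398, 378 and 384 CPM with P4HA3. Its P4HA3 samples all lay below the controls, the opposite side to UBR4. The log2 fold change was -0.19 (SE 0.05, adjusted p = 0.0336 by edgeR), and -0.15 with the offset (adjusted p = 0.0325). The call was lost without control replicate 1, control replicate 2, P4HA3 replicate 2 or P4HA3 replicate 3, where the log2 fold change was -0.17, -0.19, -0.18 and -0.19. The study reported by RT-qPCR that changing P4HA3 left ACLY mRNA unaltered, and that P4HA3 overexpression raised ACLY protein. Protein was not measured in these counts. CUL3 and KLHL25, which form a ligase for ACLY, were called in opposite directions. CUL3 rose from 43.7 ± 2.91 to 54.0 ± 3.94 CPM (0.30, adjusted p = 0.0222 by edgeR). KLHL25, the adaptor that binds ACLY, fell from 35.6 ± 2.15 to 29.2 ± 1.56 CPM (-0.28, adjusted p = 0.0273 by edgeR). USP13, a deubiquitinase, rose from 11.8 ± 0.352 to 14.7 ± 1.32 CPM (0.32, adjusted p = 0.0393 by edgeR and 0.0519 by DESeq2, where it was not called). With the offset ACLY was the only called gene of these.

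**Figure D4:**
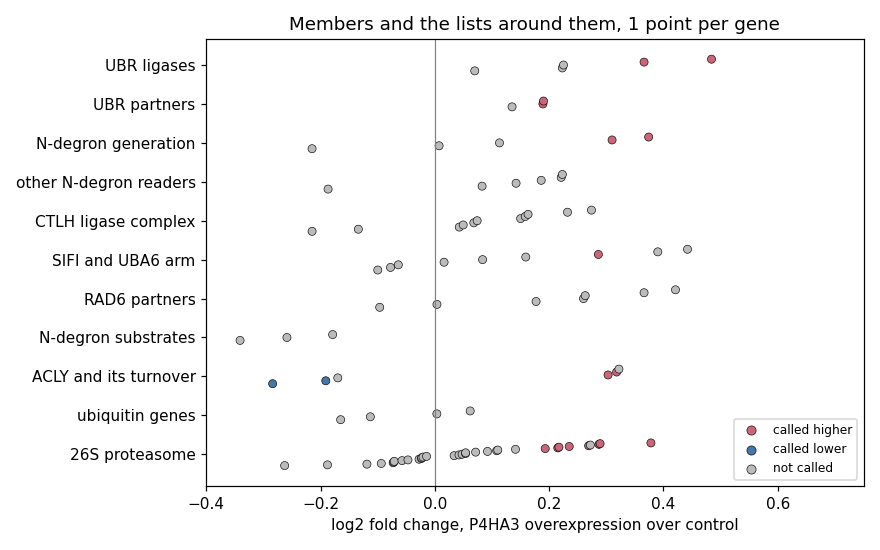
Log2 fold change of P4HA3 overexpression over control (x axis), 1 point per gene, for the UBR ligases, their partners and each list around them (y axis). Red marks genes called higher and blue genes called lower; UBR1 and UBR3 are the red points of the ligases, and ACLY and KLHL25 are the blue points.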

How the data were processed

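The authors isolated poly-A RNA and sequenced strand-specific paired-end libraries. They deposited raw counts per Ensembl gene, without normalization. The study's methods name STAR and HTSeq, whereas the submitters' processing notes name HISAT2 and GRCh38. The methods name an Ensembl release for the annotation. Tool versions, the strand setting and the handling of reads with several matches are not given in the sources used here. The members and lists were chosen with earlier results of these data known.

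Genes were kept by filterByExpr (minimum count 10), normalized by TMM and tested with edgeR 4.0.16 (R 4.3.3, quasi-likelihood, two-sided). P-values were adjusted by Benjamini-Hochberg over 15130 genes, and genes with an adjusted p under 0.05 were called. SE is the log2 fold change over the root of F. GENCODE annotation of GRCh38 matched 60463 of 60664 genes. Trends on GC content and log2 transcript length were fitted per library with mgcv 1.9.3 and entered as an offset. DESeq2 1.42.0, limma-voom 3.58.1, other normalizations and filters, a replicate block and the omission of each library were alternatives. The test and the offset were checked on simulated counts. Named genes were the 8 members, P4HA3, ACLY, up to 4 called genes of each list with the largest changes or, with fewer than 2 calls, its 2 most abundant genes, and the 5 genes most like UBR4. Other names were chosen after their values were seen, and 1 gene of the rule is not reported here. Replicates of a group differed beyond sampling noise.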

Additional observations from a re-analysis of the deposited data

How the results depend on the processing

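Of the 8 genes, 4 were called higher with all libraries, 2 with the GC and length offset, 2 with the replicate block and offset together, and between 0 and 6 with 1 library left out. The count was 0 without control replicate 1, control replicate 2 or P4HA3 replicate 3, 1 without P4HA3 replicate 2, 3 without control replicate 3 and 6 without P4HA3 replicate 1, while the share of all genes called higher ran from 1.06% to 18.3% in these fits. No alternative called any of the 8 lower. UBR4 missed the call with all libraries but passed it with DESeq2 (log2 fold change 0.224), without the filter on low counts (0.234), with the replicate block (0.219), with the offset (0.18) and with both (0.18). With 1 library left out it ran from 0.135 to 0.286, and it passed only without P4HA3 replicate 1, at 0.286. UBR7 turned to -0.0147 with the offset and -0.0142 with block and offset, and UBE2B to -0.0683 and -0.0692. Of the 84 genes around the set, 13 were called higher with all libraries, 23 without the filter, 20 with the replicate block, 20 with block and offset, and 0 to 27 with 1 library left out. Calls over all genes moved as well. They were 1416 of 15130 with all libraries, 2384 of 27552 without the filter, 2138 with the block and 2136 with block and offset. The 2 of the 84 called lower became 4 with the block, 5 with block and offset, and 0 to 10 with 1 library left out. The lower calls over all genes were 1731 with all libraries, 2175 with the block and 1657 with block and offset. They were 2.41% to 17.6% of all genes with 1 library left out. The labels do not say whether same-numbered samples were paired. Deviations of same-numbered samples correlated at 0.334, -0.0841 and 0.0208, and those of differently numbered samples at -0.414 to 0.382. With 3 samples per group, these values cannot settle whether the samples were paired. The cause of these shifts was not tested. P4HA3 stayed between 9.06 and 9.27 in 16 alternatives. The counting error of the rarer genes limits what this depth shows.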

Other observations

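Ratios of CPM between pairs of genes were computed within each library, for pairs chosen after the values were seen. The ratio of UBR4 to ACLY was 0.721, 0.804 and 0.812 in controls and 0.920, 1.19 and 1.01 with P4HA3, means of 0.779 ± 0.0504 and 1.04 ± 0.135 (SD, n = 3 each). An exact two-sided permutation test gave p = 0.1, the smallest that 3 against 3 samples allow, before any adjustment for the 4 ratios computed. In every P4HA3 sample UBR4 lay above and ACLY below all controls. This ratio therefore had to separate, and its p-value adds nothing to the values of the 2 genes. The ratio of UBR1 to UBR2 was 1.08, 1.13 and 1.02 in controls and 1.18, 1.21 and 1.16 with P4HA3, also at p = 0.1 by the exact permutation test. The ratio of KCMF1 to UBR4 was 0.290 ± 0.00802 in controls and 0.285 ± 0.0329 with P4HA3 (exact permutation p = 0.7). The ratio of UBE2A to UBE2B was 2.76 ± 0.111 in controls and 2.87 ± 0.113 with P4HA3 (exact permutation p = 0.3).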
